A study of Mus musculus with 60 samples.

Results

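The genes described are 49 cell cycle genes, listed by name, of 48440 genes listed in each table. The list was set with earlier results of these data known. They comprise 18 genes of the G1/S transition and DNA synthesis, 28 genes of G2 and mitosis (G2/M) and the 3 D-type cyclins. Each was read by its symbol in 3 count tables of bulk RNA-seq from mouse cancer-associated fibroblasts (CAFs), the activated fibroblasts of tumours, which the labels call tCAFs. Before lysis, CAFs were enriched by fluorescence-activated sorting. In multicellular aggregates, 3-dimensional clusters of cells in direct contact, CAFs were alone (titled CAF-GFP), with 393P or with 344SQ, 3 samples each. Both tumour lines derive from mouse lung adenocarcinoma; 344SQ is the metastatic line of the pair, while 393P rarely spreads. A second set of aggregates paired CAFs with 344SQ that expressed either a control shRNA (344SQ_shCTL) or one against the transcription factor Zeb1 (344SQ_shZEB1), 3 samples each. In Boyden chambers a porous membrane kept the CAFs apart from the tumour cells, and CAFs were alone, opposite 393P or opposite 344SQ, with 5 biological replicates each and 3 technical libraries per replicate. The labels do not say whether replicates came from separate CAF isolates, and the errors and p-values given here cover the variation among the deposited samples, which may be technical.

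The cell cycle is driven by cyclin-dependent kinases. D-type cyclins with Cdk4 and Cdk6 start the phosphorylation of the retinoblastoma protein, which frees E2F factors to switch on genes for DNA synthesis at the G1/S boundary. Genes of G2 and mitosis are held down in resting cells by the DREAM complex and are raised late in the cycle by B-Myb and Foxm1. CAFs in culture commonly proliferate, and mRNAs of both gene sets are used as marks of cycling cells. In bulk RNA, fewer cycling cells and less RNA per cycling cell cannot be told apart.

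The members' promoters are shown first because the 2 classes differ there. RefSeq promoter windows (GRCm38.p6, 250 bases before to 50 after the annotated start) were found for 38 of the 49 genes, 22 of G2/M, 15 of G1/S and 1 D-type cyclin. No window was matched for Kif20a, Mcm4, Ccna2, Ccnd1, Ccnd2, Ccne2, Aurkb, Tpx2, Smc4, Gins2 and Foxm1. The cell cycle homology region (CHR), the element bound by DREAM, was searched as TTTGAA or TTCGAA, the E2F core as TTCCCGC or TTGGCGC, and the CCAAT box as CCAAT, each on both strands. A reversed TTGGCGC followed by T also holds a CCAAT. A CHR was present in 19 of 22 G2/M windows (86.4%), in 2 of 15 G1/S windows (13.3%) and in 19.4% of all 27025 promoter windows of this length. The E2F core was present in 5 of 22 G2/M windows (22.7%), in 8 of 15 G1/S windows (53.3%) and in 6.93% of all. A CCAAT box was present in 19 of 22 and 9 of 15 windows, against 37.9% of all. Of the 19 G2/M genes with a CHR, 18 had 1 within 50 bases of the start. A match describes the letters only and is not evidence of binding.

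The next lines give 30 bases of the gene's strand, 5′ to 3′, around the CHR nearest the start (capitals) for G2/M genes whose values are given in full below.
Bub1b (chr2:118598231-118598260, plus strand): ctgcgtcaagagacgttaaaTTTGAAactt
Kif23 (chr9:61946780-61946809, minus strand): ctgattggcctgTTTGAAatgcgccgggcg
Cenpf (chr1:189688067-189688096, minus strand): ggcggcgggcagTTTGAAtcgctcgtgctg
Bub1 (chr2:127831828-127831857, minus strand): ctgcgcggggaaTTCGAAtcgccggcggcc
Cenpa (chr5:30666890-30666919, plus strand): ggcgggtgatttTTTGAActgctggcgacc
Top2a (chr11:99024195-99024224, minus strand): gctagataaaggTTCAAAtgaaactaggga
Cdk1 (chr10:69352910-69352939, minus strand): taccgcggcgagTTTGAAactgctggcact
Mki67 (chr7:135716460-135716489, minus strand): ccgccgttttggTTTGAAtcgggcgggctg
Plk1 (chr7:122159453-122159482, plus strand): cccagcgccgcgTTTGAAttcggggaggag
Prc1 (chr7:80294434-80294463, plus strand): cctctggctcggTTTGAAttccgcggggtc
In Top2a the CHR lies on the opposite strand and reads TTCAAA. The E2F core nearest the start is given in the same way for G1/S genes.
Mcm6 (chr1:128359733-128359762, minus strand): attggacgggtTTGGCGCgaagtagctcag
Pola1 (chrX:93632122-93632151, minus strand): tttcaggctggTTGGCGCggaatagagaga
Rrm1 (chr7:102441617-102441646, plus strand): aggagaactcgTTCCCGCcaggtccgcttt
Mcm5 (chr8:75109349-75109378, plus strand): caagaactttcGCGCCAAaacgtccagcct
The 150 bases before the start of a G2/M gene, Cdk1, and a G1/S gene, Mcm6, show the arrangements side by side, with every match in capitals.
Cdk1 (chr10:69352913-69353062, minus strand): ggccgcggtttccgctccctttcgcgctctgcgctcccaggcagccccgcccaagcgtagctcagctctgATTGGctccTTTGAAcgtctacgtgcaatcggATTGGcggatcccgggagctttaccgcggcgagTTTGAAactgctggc
Mcm6 (chr1:128359706-128359855, minus strand): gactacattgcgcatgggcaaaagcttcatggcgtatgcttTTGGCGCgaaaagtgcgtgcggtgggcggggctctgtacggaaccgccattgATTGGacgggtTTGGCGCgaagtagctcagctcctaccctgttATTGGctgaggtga
The Cdk1 stretch holds 2 CHR elements and 2 CCAAT boxes, and the Mcm6 stretch 2 E2F cores and 2 CCAAT boxes, the boxes being read as ATTGG. No CHR, E2F core or CCAAT box was found in the windows of Birc5, Nusap1, Tyms, E2f1, Mybl2, Ccne1 and Ccnd3. Only the first listed window of each gene was searched, and only for the exact strings given. Sites at another start or with other letters would be missed.

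**Figure D1:**
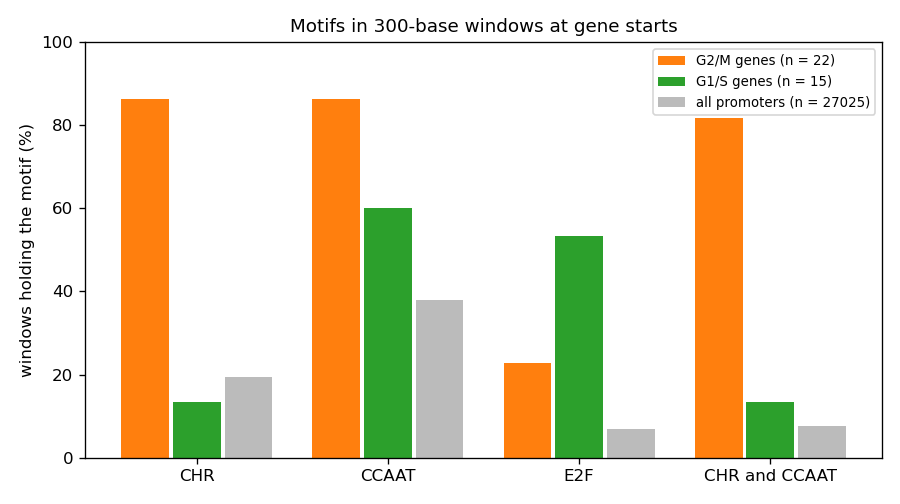
Share of 300-base promoter windows (y axis, %) that hold a CHR, a CCAAT box, an E2F core or both a CHR and a CCAAT box, for 22 G2/M genes, 15 G1/S genes and all 27025 genes with a window. The CHR bar is 86.4% for G2/M genes and 13.3% for G1/S genes, and the E2F bar is highest, at 53.3%, for G1/S genes.

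The aggregate libraries held 757717 to 1258751 counts, the shRNA libraries 739530 to 2144803 and the Boyden sums of 3 technical libraries 4182944 to 8542262, with the 344SQ sums the shallowest (4182944 to 5857925). Fibroblast markers summed to 1830.2 CPM or more in every sample, where CPM is the share of a library's counts, per 1e6 counts. For sums of markers this is the share of total counts. For single genes and sums of cell cycle genes it is the share after scaling between libraries. Of 19 carcinoma markers, the summed level was 9.69 to 91.7 CPM in the aggregates, 54.0 to 125 CPM in the Boyden sums and 119 to 1624 CPM in the shRNA table. The markers did not go alike. Epcam had at most 1 count per aggregate library, 2 per Boyden sum and 4 per shRNA library. Krt8 reached 39, 67 and 216 counts and Cdh1 7, 118 and 751 counts in the same order. Of the 19, 3 were at 0 in every aggregate library, 1 in every Boyden sum and 0 in every shRNA library. Zeb1 itself was at 50.3 to 105 CPM with shCTL and 48.4 to 144 CPM with shZEB1; the RNA is that of sorted CAFs, so this does not check a knockdown made in 344SQ cells.

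In CAFs alone, all 28 mitotic genes and 17 of 18 G1/S genes had lower means in aggregates than in Boyden chambers, and of the D-type cyclins Ccnd1 and Ccnd2 did, but not Ccnd3. The summed level was lower by most for G2/M and by least for the D-type cyclins, whose sum is mainly Ccnd2. The 28 G2/M genes summed to 63.8, 104 and 56.4 CPM in the aggregates and 3545, 3407, 3417, 3165 and 2961 CPM in the Boyden sums, a ratio of the means of 44.1. The 18 G1/S genes summed to 192, 148 and 139 against 1443, 1319, 1298, 1244 and 1220.0 CPM, a ratio of 8.17. The 3 D-type cyclins summed to 484, 569.6 and 569 against 2297, 2442, 2375, 2189 and 2334 CPM, a ratio of 4.30. In every class all aggregate values lay under all Boyden values. Per gene, on the same CPM with 1 CPM added, the median log2 ratio of Boyden over aggregate means was 5.20 for G2/M, 3.07 for G1/S and 2.23 for D-type cyclins, against 0.52 over the 14767 genes whose 2 means averaged at least 1 CPM.

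These CPM were scaled within each table. With TMM factors over both tables together, the medians were 5.03, 2.83 and 1.98, against 0.28 over all genes. The format cannot be told apart from the experiment and the library makeup, so no test was run. Ribosomal RNA-like genes took 19.1% to 24.98% of aggregate counts and 0.354% to 0.5679% of Boyden counts, and mitochondrial genes 18.96% to 24.3% against 10.8% to 14.97%. With both kinds of gene removed before scaling, the ratios were 28.5 for G2/M, 5.27 for G1/S and 2.78 for D-type cyclins, in the same order. The counts behind the aggregate sums were small, 54 to 161 for G2/M and 103 to 223 for G1/S per library.

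Mki67, which encodes the proliferation antigen Ki-67 (ENSMUSG00000031004.8, chromosome 7, 135689784 to 135716361, minus strand), shows the pattern of the mitotic class. It was at 12.1, 23.8 and 13.6 CPM in CAFs alone in aggregates and at 536, 514, 518, 512 and 454 CPM in Boyden chambers. Top2a, the DNA topoisomerase of mitotic chromosomes, was at 3.45, 2.64 and 5.23 against 345, 368, 354, 328 and 295 CPM. Cdk1, the mitotic kinase, was at 0.862, 6.61 and 0 against 125, 127, 128, 114 and 104 CPM, and Foxm1, the transcription factor of mitotic genes, at 6.03, 14.5 and 10.5 against 202, 164, 179, 177 and 152 CPM. Ccnb1 (cyclin B1), Bub1, Kif23 and Aurkb had 0 counts in all 3 aggregate libraries of CAFs alone. All 28 G2/M genes were higher in the Boyden sums, by log2 ratios of 3.30 to 6.15.

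Among G1/S genes, Rrm1, the large subunit of ribonucleotide reductase (ENSMUSG00000030978.10, chromosome 7, 102441695 to 102469771, plus strand), was at 42.2, 29.1 and 32.4 CPM in aggregates and 314, 313, 285, 281 and 292 CPM in Boyden chambers. Pcna, the sliding clamp of DNA polymerase, was at 16.4, 23.8 and 13.6 against 104, 98.3, 96.5, 96.4 and 86.6 CPM, and Mcm5, a subunit of the replicative helicase, at 0.862, 2.64 and 2.09 against 79.3, 61.3, 63.3, 65.5 and 69.4 CPM. E2f1 departed from its class: this activator of G1/S genes was at 22.4, 26.4 and 18.8 CPM in aggregates and 22.4, 13.2, 19.8, 22.7 and 19.6 CPM in Boyden chambers, a log2 ratio of -0.20 (-0.44 with joint factors) with overlapping values.

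The D-type cyclins did not move as a group. Ccnd1 (ENSMUSG00000070348.5, chromosome 7, 144929931 to 144939925, minus strand) was at 49.98, 67.4 and 36.6 CPM in aggregates against 392, 373, 355, 351 and 381 in Boyden chambers, and Ccnd2 at 347, 428 and 441 against 1849, 2025, 1974, 1789.7 and 1906 CPM. Ccnd3 went the other way, at 87.03, 74.01 and 90.9 against 56.3, 44.1, 45.5, 48.95 and 47.3 CPM, a log2 ratio of -0.78 (-1.03 with joint factors). Per kilobase of exon in the aggregates, Ccnd2 had the highest mean of the 49 genes (43.1 ± 5.41 CPM per kb, SD, n = 3), followed by Ccnd1 (10.9 ± 3.28), Ccnd3 (9.57 ± 1.01), Pcna (7.46 ± 2.20) and E2f1 (7.15 ± 1.21), and these last 4 were within their spread of each neighbour. In Boyden chambers Ccnd2 again had the highest mean (203 ± 10.02 CPM per kb, SD, n = 5), and Ccnd1 (78.6 ± 3.65) and the mitotic kinase Plk1 (73.8 ± 10.7) were within their spread.

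**Figure D2:**
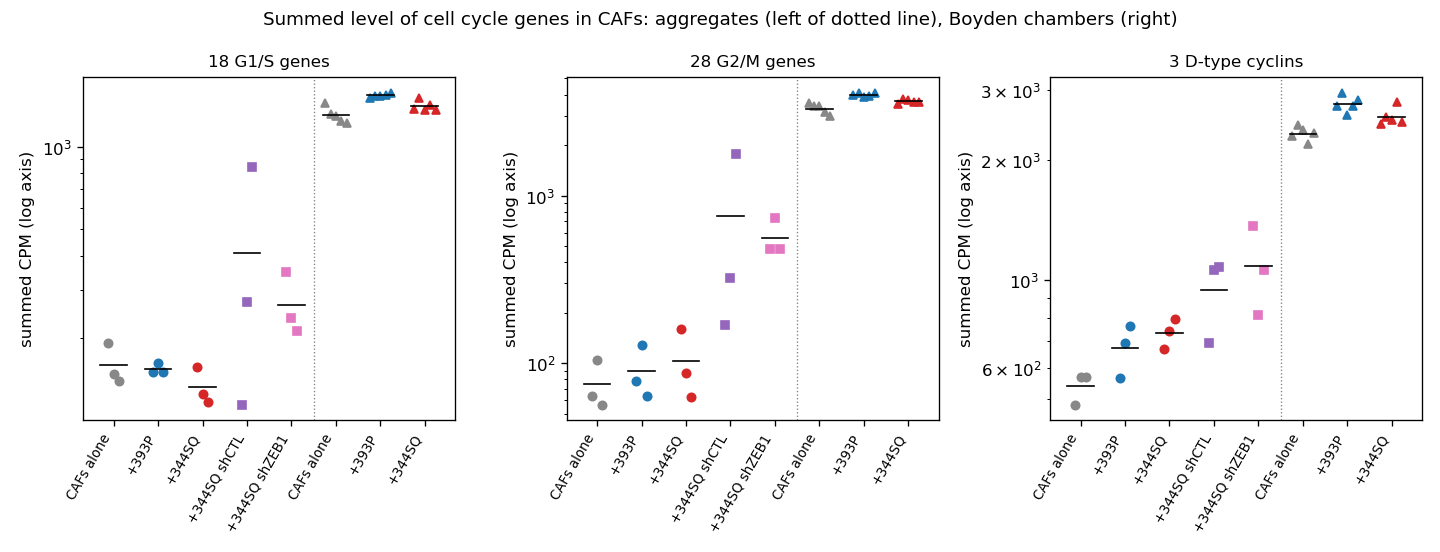
Summed CPM (log axis) of the 18 G1/S genes, 28 G2/M genes and 3 D-type cyclins in each sample of the 8 groups; circles are aggregates, squares the shRNA aggregates, triangles Boyden sums, and bars group means. All 9 aggregate samples lie under all 15 Boyden samples in each panel, and the library of shCTL replicate 3 stands above the other aggregates for G1/S (842 CPM) and G2/M (1779 CPM).

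In Boyden chambers, cell cycle genes were higher in CAFs opposite 393P, in both classes; a difference between the classes was not tested. Of 49 members, 29 rose and 0 fell (edgeR quasi-likelihood test, adjusted p under 0.05), where 7.68% of 14040 genes tested rose and 7.96% fell. The G2/M class gave 20 of 28 higher, the G1/S class 8 of 18, and of the D-type cyclins Ccnd1 rose. The median log2 change was 0.33 for G2/M and 0.24 for G1/S, against 0.00065 over all genes tested. The changes were small: the summed G2/M level went from 3545, 3407, 3417, 3165 and 2961 CPM in CAFs alone to 3955, 4100.2, 3868, 3915 and 4081 CPM opposite 393P, with no overlap. The G1/S sum went from 1443, 1319, 1298, 1244 and 1220.0 to 1510.1, 1541, 1540.5, 1552 and 1577 CPM, again with no overlap. The ratio of the G2/M to the G1/S sum was 2.53 ± 0.0854 in CAFs alone and 2.58 ± 0.0641 opposite 393P (SD, n = 5), so the sums of the classes kept their proportion within the spread. With 1 technical library per replicate in place of the sum of 3, the members that rose numbered 18, 6 or 19 opposite 393P and 6, 4 or 5 opposite 344SQ, at lower depth.

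Opposite 344SQ the direction was the same in most members and fewer passed the test. Of 49 members, 16 rose and 0 fell, where 7.43% of genes tested rose and 7.44% fell. The classes gave 9 of 28 G2/M genes, 6 of 18 G1/S genes and Ccnd1. The median log2 change was 0.16 for G2/M and 0.13 for G1/S, against 0.0064 over all genes. Without CAFs-alone replicate 5 the count of members that rose was 9, and without replicate 4 it was 10; these 2 samples had the lowest G1/S and G2/M sums of their group. The 344SQ effect shares its CAFs-alone samples with the 393P effect, so the 2 sets of calls are not independent. The G2/M sum was 3529.9, 3754, 3702, 3605 and 3638 CPM and the G1/S sum 1379, 1511, 1361, 1424 and 1364 CPM opposite 344SQ, both overlapping CAFs alone. Of the 16 calls, 7 were lost in some fit that left out 1 sample: Cenpa without CAFs-alone or 344SQ replicate 5, Top2a without CAFs-alone replicate 4 or 5 or 344SQ replicate 3, and Mcm6 without CAFs-alone replicate 4 or 5 or 344SQ replicate 3 or 4. Pcna was lost without CAFs-alone replicate 3, 4 or 5 or 344SQ replicate 2 or 4, Ncapg without CAFs-alone replicate 3, 4 or 5 or 344SQ replicate 3 or 5, and Smc2 without CAFs-alone replicate 1, 4 or 5 or 344SQ replicate 3 or 4. Mcm4 was lost without CAFs-alone replicate 3, 4 or 5 or 344SQ replicate 1, 3 or 4.

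Ccnd1, the cyclin that couples growth signals to Cdk4 and Cdk6, had the largest change of all members opposite either line. It was at 392, 373, 355, 351 and 381 CPM in CAFs alone, 632, 674, 622, 593 and 655 CPM opposite 393P, and 565, 617, 545, 601 and 562 CPM opposite 344SQ. Neither co-culture overlapped CAFs alone, with log2 changes of 0.78 ± 0.06 (SE; adjusted p = 8.37e-10, edgeR) and 0.64 ± 0.06 (adjusted p = 3.74e-09, edgeR), or 1.72-fold and 1.56-fold. Of its exonic bases 23.4% overlap a gene on the opposite strand, LTO1 (listed as Oraov1), whose own log2 changes were -0.05 ± 0.13 and -0.13 ± 0.13; the strand setting of the counting is not given in the sources used here. Ccnd2 did not pass: it was at 1849, 2025, 1974, 1789.7 and 1906 CPM in CAFs alone, 2057, 2234, 1932, 2092 and 2128 CPM opposite 393P, and 1862, 1900.3, 1940.0, 2167 and 1886 CPM opposite 344SQ, with log2 changes of 0.13 ± 0.06 and 0.03 ± 0.06. Ccnd3 was at 56.3, 44.1, 45.5, 48.95 and 47.3 CPM in CAFs alone, 41.2, 39.97, 36.5, 46.9 and 39.6 CPM opposite 393P, and 39.4, 46.7, 39.8, 31.9 and 47.4 CPM opposite 344SQ. Its log2 changes were -0.24 ± 0.09 (adjusted p = 0.0725, edgeR) and -0.24 ± 0.09 (adjusted p = 0.1, edgeR), neither past the threshold.

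**Figure D3:**
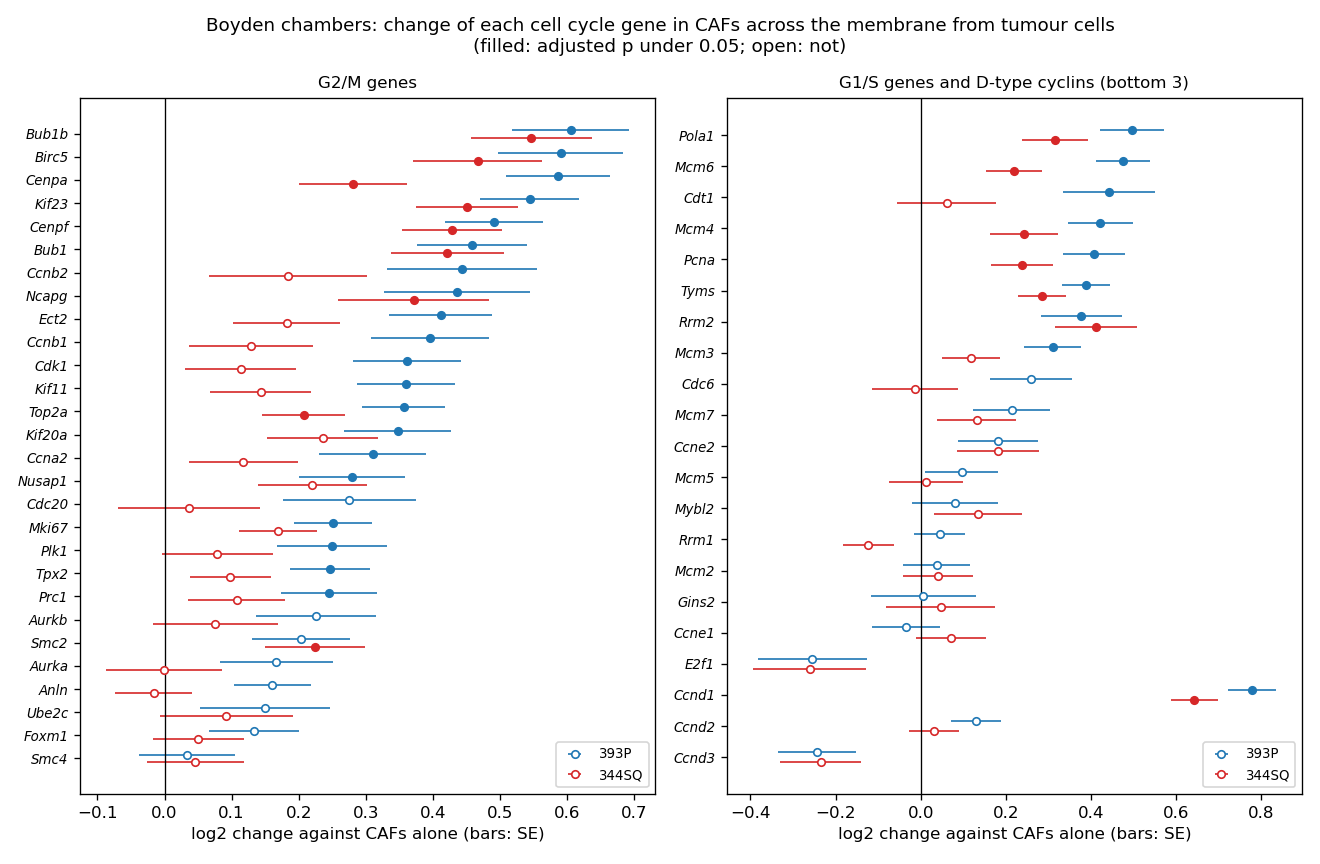
Log2 change (x axis, bars SE) of each of the 49 genes in Boyden CAFs opposite 393P (blue) and 344SQ (red) against CAFs alone, with filled points for adjusted p under 0.05. Ccnd1 lies farthest right at 0.78 and 0.64, and E2f1 and Ccnd3 lie left of 0 for both lines without passing the test.

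The mitotic genes with the smallest p opposite 393P were parts of the centromere, the spindle checkpoint and the cytokinesis machinery. Cenpa, the centromeric histone H3 variant, was at 54.3, 50.02, 48.9, 46.95 and 43.7 CPM in CAFs alone, 74.6, 61.1, 72.2, 82.6 and 74.9 CPM opposite 393P, and 55.5, 61.6, 53.98, 62.3 and 62.6 CPM opposite 344SQ. It rose opposite both lines, by 0.59 ± 0.08 and 0.28 ± 0.08 on the log2 scale, with the 393P values clear of CAFs alone and the lowest 344SQ value under the highest of CAFs alone. Kif23, a kinesin of the central spindle, was at 47.4, 45.6, 47.6, 41.8 and 38.3 CPM in CAFs alone, 65.3, 64.8, 60.5, 61.5 and 69.5 CPM opposite 393P, and 55.8, 60.2, 58.6, 68.8 and 58.4 CPM opposite 344SQ. Its changes were 0.54 ± 0.07 and 0.45 ± 0.08, with no overlap with CAFs alone. Bub1b, the checkpoint kinase BubR1, was at 21.8, 16.03, 19.8, 18.7 and 20.96 CPM in CAFs alone, 28.5, 28.8, 28.8, 28.1 and 33.8 CPM opposite 393P, and 29.1, 27.2, 27.7, 28.6 and 29.6 CPM opposite 344SQ. Its changes were 0.61 ± 0.09 and 0.55 ± 0.09, also without overlap. Cenpf, a kinetochore protein, was at 76.02, 86.3, 77.5, 69.7 and 69.8 CPM in CAFs alone, 106, 121, 105, 92.8 and 108 CPM opposite 393P, and 93.1, 103, 102, 112 and 100.4 CPM opposite 344SQ, and Bub1, a checkpoint kinase, at 38.5, 47.4, 48.8, 40.9 and 43.9 CPM in CAFs alone, 61.4, 66.99, 50.3, 61.3 and 62.01 CPM opposite 393P, and 53.9, 56.2, 66.3, 58.4 and 60.1 CPM opposite 344SQ. Both were above CAFs alone in all 10 co-culture samples. Cenpf rose by 0.49 ± 0.07 and 0.43 ± 0.07, and Birc5 (survivin), a subunit of the chromosomal passenger complex, by 0.59 ± 0.09 and 0.47 ± 0.10. Bub1 rose by 0.46 ± 0.08 and 0.42 ± 0.08.

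Cdk1, Ccnb1 and Mki67 rose opposite 393P without passing opposite 344SQ, Top2a rose opposite both, and Foxm1 passed for neither. Cdk1 was at 125, 127, 128, 114 and 104 CPM in CAFs alone, 146, 134, 147, 173 and 166 CPM opposite 393P, and 120.1, 109.5, 132, 137 and 148 CPM opposite 344SQ. Its log2 changes were 0.36 ± 0.08 (adjusted p = 0.00306, edgeR) and 0.11 ± 0.08 (adjusted p = 0.396, edgeR). Ccnb1, its partner cyclin B1, was at 44.4, 46.2, 40.4, 38.4 and 35.2 CPM in CAFs alone, 52.1, 46.2, 49.6, 58.1 and 62.4 CPM opposite 393P, and 39.96, 41.5, 49.4, 47.2 and 45.8 CPM opposite 344SQ. The lowest 393P value and the highest CAFs-alone value both rounded to 46.2 CPM, and the other 393P values lay above CAFs alone. The 344SQ values overlapped CAFs alone. The log2 changes of Ccnb1 were 0.40 ± 0.09 (adjusted p = 0.00305, edgeR) and 0.13 ± 0.09 (adjusted p = 0.389, edgeR). Mki67 was at 612, 638, 609, 569 and 586 CPM opposite 393P and 574, 620.5, 575, 524 and 554 CPM opposite 344SQ, with changes of 0.25 ± 0.06 (adjusted p = 0.00413, edgeR) and 0.17 ± 0.06 (adjusted p = 0.0511, edgeR). Top2a was at 422, 471, 405, 438 and 429 and 391, 379.6, 416, 401 and 365 CPM and passed for both lines, at 0.36 ± 0.06 and 0.21 ± 0.06. Foxm1 was at 184, 192, 188, 197 and 197 and 165, 193, 174, 177 and 196 CPM; its changes of 0.13 ± 0.07 and 0.05 ± 0.07 did not pass. The other G2/M genes without a call opposite 393P were Anln, Cdc20, Smc2, Aurkb, Aurka, Ube2c and Smc4, at log2 changes of 0.03 to 0.28.

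In the G1/S class the members split. Subunits of the Mcm2-7 helicase, which opens replication origins, did not move alike: Mcm6, Mcm4 and Mcm3 rose opposite 393P by 0.48 ± 0.06, 0.42 ± 0.08 and 0.31 ± 0.07, while Mcm7, Mcm5 and Mcm2 had changes of 0.21 ± 0.09, 0.10 ± 0.09 and 0.04 ± 0.08 that did not pass. Mcm6 was at 91.5, 78.9, 90.02, 77.5 and 75.5 CPM in CAFs alone, 119, 107, 111, 122 and 116 CPM opposite 393P, and 93.1, 95.3, 98.99, 99.9 and 94.1 CPM opposite 344SQ. Every co-culture value of Mcm6 lay above CAFs alone, and opposite 344SQ it rose by 0.22 ± 0.07. Tyms, the thymidylate synthase, was at 95.8, 91.8, 83.3, 88.6 and 83.5 CPM in CAFs alone, 117, 111, 115, 114 and 121 CPM opposite 393P, and 109, 109.9, 109, 108 and 104 CPM opposite 344SQ. It rose by 0.39 ± 0.06 and 0.29 ± 0.06, with no overlap for either line. Pola1, the catalytic subunit of DNA polymerase alpha, was at 73.2, 87.7, 78.4, 68.5 and 74.5 CPM in CAFs alone, 99.98, 125, 100.1, 108 and 106 CPM opposite 393P, and 95.6, 93.03, 106, 96.4 and 83.99 CPM opposite 344SQ. It rose by 0.50 ± 0.08 and 0.32 ± 0.08, and its 344SQ values overlapped CAFs alone.

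Pcna was at 104, 98.3, 96.5, 96.4 and 86.6 CPM in CAFs alone, 116, 133, 131, 128 and 130.2 opposite 393P and 111, 122, 96.5, 132 and 106 opposite 344SQ. It rose by 0.41 ± 0.07 and 0.24 ± 0.07, and only the 393P values were clear of CAFs alone. Rrm2, the small subunit of ribonucleotide reductase, was at 59.02, 72.2, 59.1, 47.6 and 51.2 CPM in CAFs alone, 68.4, 81.9, 76.7, 73.6 and 74.6 CPM opposite 393P, and 73.8, 66.5, 72.1, 93.1 and 79.8 CPM opposite 344SQ, with overlap for both lines. It rose by 0.38 ± 0.09 and 0.41 ± 0.10, while Rrm1, the large subunit, had changes of 0.04 ± 0.06 and -0.12 ± 0.06 that did not pass. Mcm5 was at 73.9, 69.9, 71.9, 69.4 and 76.5 CPM opposite 393P and 73.4, 84.3, 59.6, 60.8 and 61.7 CPM opposite 344SQ, overlapping CAFs alone in both. E2f1 was at 15.1, 15.7, 18.7, 16.9 and 15.6 and 15.9, 17.2, 12.1, 17.3 and 19.2 CPM, with changes of -0.25 ± 0.13 (adjusted p = 0.188, edgeR) and -0.26 ± 0.13 (adjusted p = 0.205, edgeR), the lowest values of its class. The E-type cyclins did not pass for either line, with Ccne1 at -0.03 ± 0.08 and 0.07 ± 0.08 and Ccne2 at 0.18 ± 0.09 and 0.18 ± 0.10.

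Tested directly, 2 members differed between the lines in Boyden chambers, both lower opposite 344SQ than opposite 393P: Mcm6 with a log2 difference of -0.26 ± 0.06 (adjusted p = 0.0213, edgeR) and Cenpa of -0.31 ± 0.08 (adjusted p = 0.0246, edgeR). Over all genes 1.36% were lower and 2.52% higher. No member was higher opposite 344SQ by edgeR at an adjusted p under 0.05, and of the 21 members with an unadjusted p under 0.05 all were lower. DESeq2 also called 0 higher. Of 49 log2 changes 41 were negative, with medians of -0.14 for G2/M and -0.09 for G1/S against 0.0038 over all genes. Among the other lists Cdk6 was higher opposite 344SQ (0.20 ± 0.05), and Cdca8, a chromosomal passenger gene (-0.29 ± 0.07), Dut, the dUTPase gene (-0.41 ± 0.09), and Prim2, a primase subunit gene (-0.29 ± 0.07), were lower. The 2 member calls rest on few samples: with 1 sample left out in turn, Mcm6 lost its call in 4 of 10 fits (without 344SQ replicate 1 or 393P replicate 1, 4 or 5) and Cenpa in 6 of 10 (without 344SQ replicate 1 or 3 or 393P replicate 1, 3, 4 or 5). Technical library 1 or 3 alone called 0 members lower, with Cenpa at 0.083 in library 1, and a replicate block left 1.

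Mitotic and replication genes outside the 49 members also rose in Boyden chambers, to be read against the 7.68% of all genes that rose opposite 393P and the 7.43% opposite 344SQ. Of 54 other mitotic genes tested, 41 rose opposite 393P and 16 opposite 344SQ, and 0 fell; the cytokinesis kinase gene Cit rose by 0.47 ± 0.07 and 0.36 ± 0.07, and Pttg1, which encodes securin, by 0.50 ± 0.07 and 0.31 ± 0.07. Of 40 other replication genes, 21 and 5 rose and 0 fell, including Gmnn, the geminin gene, by 0.66 ± 0.11 and 0.59 ± 0.12. The 5 of 40 opposite 344SQ are near that background. Median log2 changes were 0.35 and 0.18 for the mitotic list and 0.28 and 0.17 for the replication list. Of 7 other E2F factors, 0 passed for either line. The CDK inhibitor genes gave 2 of 6 lower opposite 393P, Cdkn2a (p16 and p19Arf, -0.41 ± 0.11) and Cdkn2b (p15, -0.31 ± 0.09), and 0 of 6 opposite 344SQ. Cdkn1a, the p53-responsive inhibitor p21, was at 141, 111, 130.0, 118 and 134 CPM in CAFs alone and did not pass, at -0.12 ± 0.06 and 0.01 ± 0.07. Of 10 G1 and checkpoint kinases and phosphatases, 3 rose opposite 393P, including the Cdk-activating phosphatase genes Cdc25b (0.47 ± 0.10) and Cdc25c (0.52 ± 0.11), and 1 opposite 344SQ, the G1 kinase gene Cdk6 (0.19 ± 0.05). Among the pocket proteins Rbl1 (p107) rose by 0.32 ± 0.09 and 0.33 ± 0.10, and Rb1 did not pass, at 0.06 ± 0.10 and -0.09 ± 0.10.

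Markers of other cell types were read beside these genes. Of 6 carcinoma markers tested in the Boyden table, 0 rose and 1 fell opposite each line, with positive median log2 changes of 0.57 and 0.56, and the summed carcinoma level was 91.3, 72.1, 92.1, 87.98 and 95.2 CPM in CAFs alone, 125, 55.7, 84.1, 53.97 and 55.7 opposite 393P and 68.9, 69.8, 61.98, 68.9 and 79.6 opposite 344SQ. Of the 19 carcinoma markers, only Cldn3 was at 0 counts in all 15 sums, and Epcam was at 2 counts or fewer. Cdh3 was at 129 to 599 counts, Krt7 at 17 to 191 and Cdh1 at 4 to 118. Of 11 fibroblast markers tested, 1 rose and 6 fell opposite each line, and of 3 leukocyte markers 0 rose and 1 fell. Kdr, the only endothelial marker tested, fell opposite both lines (-0.77 ± 0.14 and -0.89 ± 0.15), and the endothelial sum was 14.8, 17.3, 19.1, 16.4 and 17.05 CPM in CAFs alone, 10.98, 8.69, 10.6, 12.7 and 10.4 opposite 393P and 8.17, 11.6, 10.9, 11.5 and 10.5 opposite 344SQ. The part of other cells in the Boyden results was not tested. In all 10 leave-one-out fits of the 393P comparison the count of members that rose stayed between 26 and 35, and the calls lost in some of them were Plk1 (7 fits), Nusap1 (4 fits) and Prc1 (2 fits).

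In aggregates, only 11 of the 49 genes had enough counts to be tested: Mki67, the D-type cyclins and 7 G1/S genes (Rrm1, Tyms, Mcm7, Cdt1, Pcna, E2f1 and Mcm3). With 393P, 0 of the 11 rose and Rrm1 fell, where 5.41% of 7992 genes tested rose and 5.27% fell. With 344SQ, Ccnd1 rose and 0 fell, where 3.48% rose and 2.36% fell. Between the lines 0 of the 11 differed by edgeR at an adjusted p under 0.05, 2 at an unadjusted p under 0.05 and 0 by DESeq2, where 2.21% of genes were higher and 1.94% lower with 344SQ. The genes tested passed the count filter on their level in any group and stand for their class only in part.

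Rrm1 was at 42.2, 29.1 and 32.4 CPM in CAFs alone, 24.4, 10.3 and 16.7 with 393P and 23.7, 15.8 and 11.2 with 344SQ. Every co-culture value lay under every CAFs-alone value. The log2 change was -1.04 ± 0.33 with 393P (adjusted p = 0.0386, edgeR) and -1.05 ± 0.34 with 344SQ (adjusted p = 0.0641, edgeR), close to each other on either side of the threshold. The 393P call rests on few samples: it was lost without CAFs-alone replicate 1 or 3 and without 393P replicate 2 or 3, with log2 changes from -1.40 to -0.76 over the 6 fits, and DESeq2 did not call it (-1.01). Tyms, the other nucleotide synthesis gene tested, was at 12.9, 6.61 and 5.23 CPM in CAFs alone, 20.6, 19.8 and 9.40 with 393P and 6.17, 12.1 and 6.53 with 344SQ, with no call and log2 changes of 0.97 ± 0.45 and -0.08 ± 0.51.

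Ccnd1 in aggregates was at 49.98, 67.4 and 36.6 CPM in CAFs alone, 49.7, 132 and 86.7 with 393P and 93.6, 70.3 and 150.2 with 344SQ. With 344SQ no value fell in the range of CAFs alone, and the log2 change was 1.06 ± 0.29 (adjusted p = 0.0218, edgeR). With 393P the values overlapped CAFs alone, and the change of 0.83 ± 0.29 did not pass (adjusted p = 0.0643, edgeR). The 344SQ call was lost without CAFs-alone replicate 1 or 3 or 344SQ replicate 3, where the log2 changes were 1.04, 0.86 and 0.69. Its opposite-strand neighbour Oraov1 had changes of 1.10 ± 0.55 with 393P and 0.63 ± 0.59 with 344SQ, neither past the threshold. Ccnd2 was at 347, 428 and 441 CPM in CAFs alone, 420.3, 425 and 570.4 with 393P and 485, 526 and 577 with 344SQ, with changes of 0.22 ± 0.16 and 0.39 ± 0.16. Ccnd3 was at 87.03, 74.01 and 90.9 CPM in CAFs alone, 96.6, 136 and 107 with 393P and 88.4, 145 and 67.2 with 344SQ, with changes of 0.43 ± 0.22 and 0.23 ± 0.22. Neither passed.

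The remaining G1/S genes tested gave no call. Mcm7 was at 26.7, 18.5 and 20.9 CPM in CAFs alone, 7.51, 12.7 and 21.9 with 393P and 13.4, 10.9 and 12.1 with 344SQ, lower with both lines (-0.69 ± 0.37 and -0.87 ± 0.38) without passing. Cdt1, which loads the Mcm helicase, was at 10.3, 5.29 and 7.32 CPM in CAFs alone, 11.3, 15.9 and 15.7 with 393P and 10.3, 4.85 and 5.60 with 344SQ, with changes of 0.85 ± 0.45 and -0.18 ± 0.51. Pcna was at 16.4, 23.8 and 13.6 CPM in CAFs alone, 15.01, 11.9 and 6.27 with 393P and 14.4, 13.3 and 10.3 with 344SQ. E2f1 was at 22.4, 26.4 and 18.8 CPM in CAFs alone, 33.8, 37.3 and 18.8 with 393P and 33.9, 26.7 and 26.1 with 344SQ, and its changes were 0.44 ± 0.30 and 0.37 ± 0.31. The cycling mark Mki67 was at 12.1, 23.8 and 13.6 CPM in CAFs alone, 7.51, 32.5 and 8.36 with 393P and 30.8, 20.6 and 6.53 with 344SQ, with changes of 0.07 ± 0.49 and 0.25 ± 0.49. Top2a, at 2.64 to 8.23 CPM, and Cdk1, at 0 to 6.61 CPM over the 9 samples, were too low to test, as were Foxm1 (4.11 to 14.5 CPM), Mcm5 (0 to 4.11 CPM) and Ccnb1 (0 to 2.09 CPM).

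Among inhibitors in the aggregates, Cdkn1a moved with 393P. It was at 232, 260.4 and 259 CPM in CAFs alone, 84.4, 95.2 and 157 with 393P and 184, 240.0 and 235 with 344SQ, and no 393P value reached the other groups. The log2 change was -1.17 ± 0.19 with 393P (adjusted p = 4.91e-05, edgeR), -0.19 ± 0.18 with 344SQ (adjusted p = 0.691, edgeR), and 0.98 ± 0.19 for 344SQ against 393P (adjusted p = 0.0012, edgeR). Of 4 inhibitor genes tested it was the only call. Of 7 other mitotic genes tested, the tubulin gene Tubb4b fell with both lines (-0.97 ± 0.24 and -1.02 ± 0.24) and Psrc1, a spindle protein gene, with 393P (-1.04 ± 0.30). Of 6 other replication genes tested 0 passed with either line. Rb1 did not pass (0.53 ± 0.42 and 0.27 ± 0.44), and Rbl1, at 1.04 to 5.55 CPM, was not tested.

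Carcinoma markers in these 9 libraries summed to 9.69, 13.2 and 20.3 CPM in CAFs alone, 20.8, 31.8 and 91.7 with 393P and 15.9, 21.03 and 31.2 with 344SQ, and 0 of 19 had enough counts to be tested. Fibroblast markers summed to 7542, 5847 and 4916 CPM in CAFs alone, 9690.2, 11028 and 10953 with 393P and 6022, 5422 and 5994 with 344SQ, the 393P values being above the others without overlap. Of 11 tested, 5 rose and 2 fell with 393P, and 1 rose and 2 fell with 344SQ. Cd68, the only leukocyte marker tested, fell with 393P (-1.51 ± 0.43). The part of these markers in the aggregate results was not tested.

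**Figure D4:**
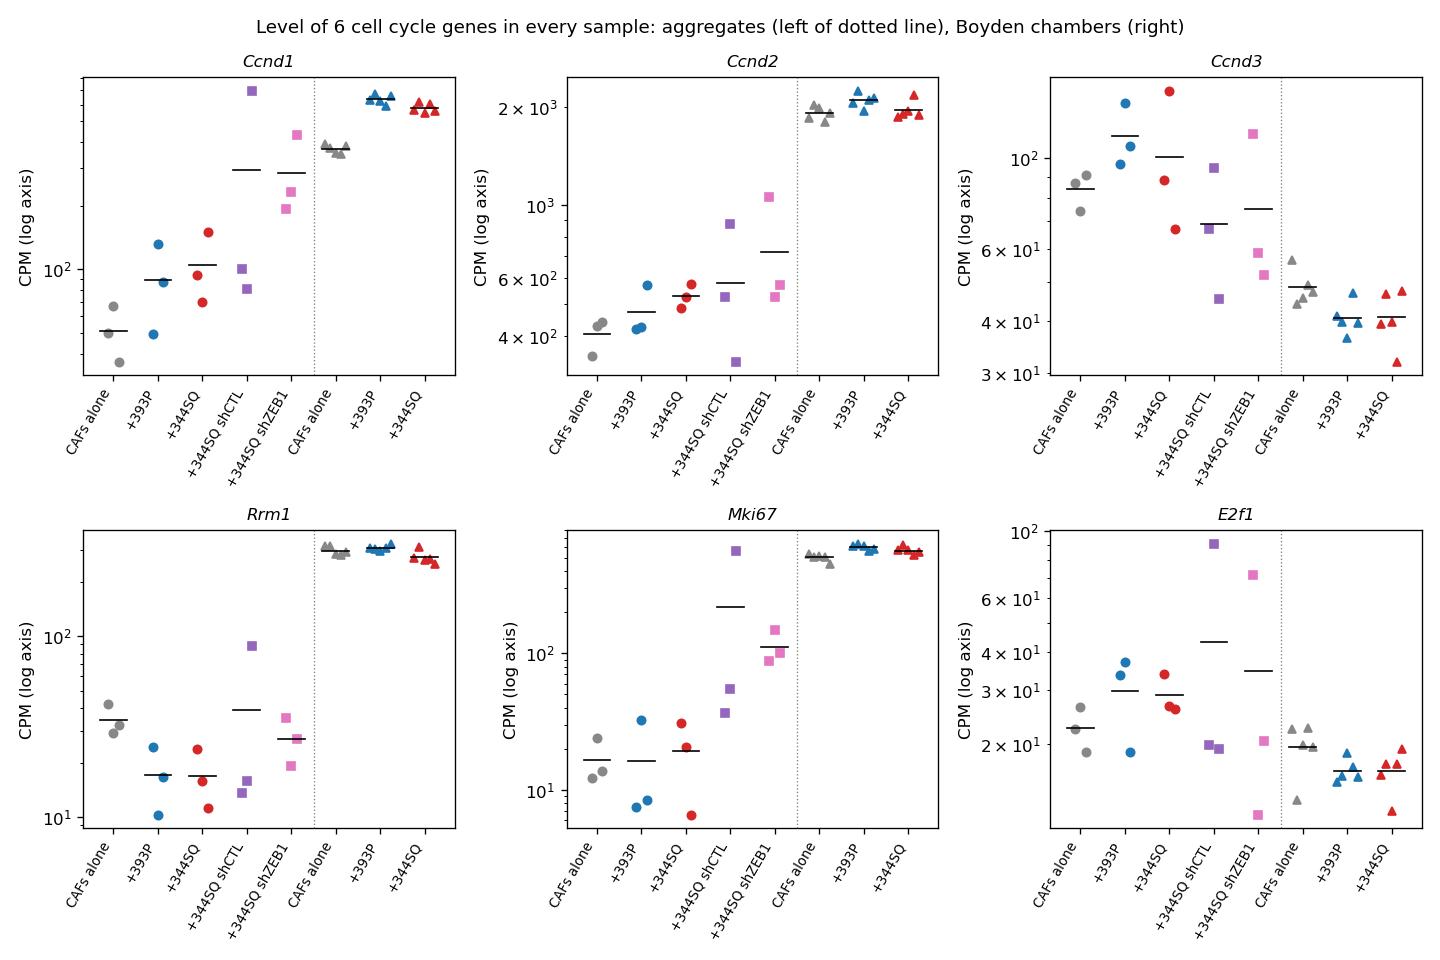
CPM (log axis) of Ccnd1, Ccnd2, Ccnd3, Rrm1, Mki67 and E2f1 in every sample of the 8 groups; circles are aggregates, squares the shRNA aggregates, triangles Boyden sums, and bars group means. Ccnd1 is above CAFs alone in all Boyden co-cultures, Rrm1 is under CAFs alone in all 6 aggregate co-cultures with 393P or 344SQ, and Ccnd3 in CAFs alone is higher in the 3 aggregate samples than in the 5 Boyden samples.

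Whether the tumour cells' effect differed between the formats was tested as a difference of log2 changes in a joint fit. For 393P, 2 of 49 members differed, against 8.98% of 15193 genes, and for 344SQ 1 of 49, against 4.73%. Most members entered this fit only through their Boyden counts: of the 11 that passed the filter in the aggregates, 2 differed for 393P and 1 for 344SQ, where 14.9% and 7.88% of the 7992 genes tested in the aggregates differed. Rrm1 differed for both lines, its change being lower in aggregates, with a difference (aggregates minus Boyden) of -1.04 ± 0.27 (adjusted p = 0.00746, edgeR) for 393P and -0.91 ± 0.28 (adjusted p = 0.0464, edgeR) for 344SQ. Ccnd3 differed for 393P, by 0.75 ± 0.22 (adjusted p = 0.0221, edgeR): its change was 0.43 in aggregates and -0.24 in Boyden chambers, neither of which passed alone. Ccnd1, raised in Boyden chambers, did not differ between formats past the threshold, at 0.15 ± 0.27 and 0.48 ± 0.27. With 1 sample left out in turn, the 393P call of Rrm1 was lost without aggregate CAFs-alone replicate 1 or 393P replicate 2 (-0.83 and -0.76), and that of Ccnd3 without aggregate CAFs-alone replicate 2 or 393P replicate 2 (0.66 and 0.56). The 344SQ call of Rrm1 was lost in 11 of 16 fits: without aggregate CAFs-alone replicate 1 or 3, aggregate 344SQ replicate 2 or 3, Boyden CAFs-alone replicate 3, 4 or 5, or Boyden 344SQ replicate 1, 2, 3 or 4. Mki67, the only G2/M member tested in the aggregates, did not differ past the threshold, with ratios of its changes of 0.97 for 393P and 1.10 for 344SQ. For the other G2/M members the aggregate counts were too few for the difference to be read.

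No cell cycle gene was called in CAFs aggregated with 344SQ_shZEB1 against 344SQ_shCTL. Of 33 members tested (17 G2/M, 13 G1/S and the 3 D-type cyclins), edgeR called 0 in either direction, as it did for 0% of 7801 genes, and 3 members and 466 genes had an unadjusted p under 0.05. DESeq2 called 26 genes and none of the members. The biological coefficient of variation in this table was 61.7%, against 16.2% in the other aggregates. These are 9.09% of the members and 5.97% of all genes tested. Groups did not overlap in 5 of 33 members (15.2%) and in 11.7% of all genes, so neither share is far from that of all genes. The 3 members with an unadjusted p under 0.05 were mitotic and had higher values with shZEB1, each without overlap. Kif20a, a kinesin of cytokinesis, was at 3.42, 2.36 and 1.93 CPM with shCTL cells and 14.9, 17.6 and 17.3 with shZEB1 cells, a log2 change of 2.63 ± 0.83 (adjusted p = 0.725, edgeR). It had 2 to 5 counts per shCTL library and 12 to 34 per shZEB1 library. Kif20a thus passed the count filter only through its shZEB1 libraries, so the filter favoured its direction and lack of overlap. Plk1, the mitotic polo-like kinase, was at 8.88, 11.8 and 9.67 CPM with shCTL cells and 38.6, 58.7 and 40.4 with shZEB1 cells, a change of 2.16 ± 0.69 (adjusted p = 0.725, edgeR). Prc1, which bundles the microtubules of the central spindle, was at 3.42, 10.2 and 23.2 CPM with shCTL cells and 27.2, 54.3 and 48.1 with shZEB1 cells, a change of 1.82 ± 0.79 (adjusted p = 0.799, edgeR). Its lowest shCTL library, at 3.42 CPM, was under the count filter. Prc1 therefore also needed shZEB1 libraries to pass, which favoured its direction too. Kif20a shares 29.3% of its exonic bases with Cdc23 on the opposite strand, and Prc1 shares 11.1% with Rccd1; Cdc23 changed by 0.39 ± 0.63 and Rccd1 by -0.56 ± 0.85.

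The control libraries stood apart from each other. In shCTL replicate 3 the G2/M genes summed to 1779 CPM and the G1/S genes to 842 CPM, against 169 and 320.0 CPM, and 114 and 272 CPM, in the other shCTL libraries. The shZEB1 libraries were at 476, 731 and 477 CPM for G2/M and 348, 236 and 212 CPM for G1/S. The 19 carcinoma markers summed to 153, 119 and 1624 CPM with shCTL and 141, 1152 and 563 CPM with shZEB1, so the same library was highest, with shZEB1 replicate 2 next. Fibroblast markers were lowest in shCTL replicate 3, at 1830.2 CPM. They were at 2982 and 4738 CPM in shCTL replicates 1 and 2 and at 4982, 4228 and 3944 CPM with shZEB1. Replicate 1 of shCTL was thus also under every shZEB1 library. Replicates 1 and 2 of shCTL stood apart in another way, with 40.8% and 36.2% of counts from mitochondrial genes and 62.2% and 60.3% in the 10 most abundant genes, against 26.1% and 47.7% in replicate 3, and 23.5% to 27.6% and 46.3% to 53.8% with shZEB1. The part of tumour cell RNA or RNA quality in these values was not tested.

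Members did not move alike in that library. Mki67 was at 36.2, 54.4 and 564 CPM with shCTL cells and 87.4, 148 and 99.9 with shZEB1 cells, and Top2a at 11.6, 33.9 and 196 CPM with shCTL cells and 26.3, 38.1 and 20.5 with shZEB1 cells. Mcm5 was at 3.42, 2.36 and 60.9 CPM with shCTL cells and 14.05, 14.7 and 9.61 with shZEB1 cells, and Foxm1 at 14.4, 27.6 and 187 CPM with shCTL cells and 58.8, 33.7 and 35.9 with shZEB1 cells. These 4 genes were highest in shCTL replicate 3, while E2f1, given below, was not. Among the shCTL libraries Prc1 was also highest there, Plk1 lay between the others and Kif20a was lowest. Plk1, Kif20a and Prc1 were picked for the smallest p and already described as without overlap. That they lie under every shZEB1 library there is therefore not a separate result. The median log2 change with shZEB1 was -0.69 for the 13 G1/S genes and -0.11 for the 17 G2/M genes, against -0.02 over all genes tested. Without shCTL replicate 3 both medians were positive, at 1.49 and 1.38, with 0 members called; the controls then left are the 2 libraries rich in mitochondrial counts.

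The other genes always described gave no call. Cdk1 was at 2.05, 2.36 and 26.1 CPM with shCTL cells and 5.27, 11.7 and 3.84 with shZEB1 cells, too low to test, as was Ccnb1 at 1.37, 0 and 0.967 CPM with shCTL cells and 0.439, 1.47 and 1.92 with shZEB1 cells. Pcna was at 14.4, 4.73 and 22.2 CPM with shCTL cells and 10.1, 2.93 and 5.13 with shZEB1 cells, a change of -1.11 ± 0.87, and E2f1 at 19.8, 90.6 and 19.3 CPM with shCTL cells and 71.6, 11.7 and 20.5 with shZEB1 cells, a change of -0.30 ± 0.81. The D-type cyclins had changes of -0.04 ± 0.69 for Ccnd1, 0.31 ± 0.46 for Ccnd2 and 0.12 ± 0.54 for Ccnd3. Ccnd1 was at 100.5, 81.2 and 697 CPM with shCTL cells and 192, 232 and 429.9 with shZEB1 cells, again highest in shCTL replicate 3. Of the other lists, 0 of 19 mitotic, 0 of 11 replication and 0 of 3 CDK inhibitor genes were called, and Cdkn1a was at 299, 264 and 219.5 CPM with shCTL cells and 144, 279 and 363 with shZEB1 cells.

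**Figure D5:**
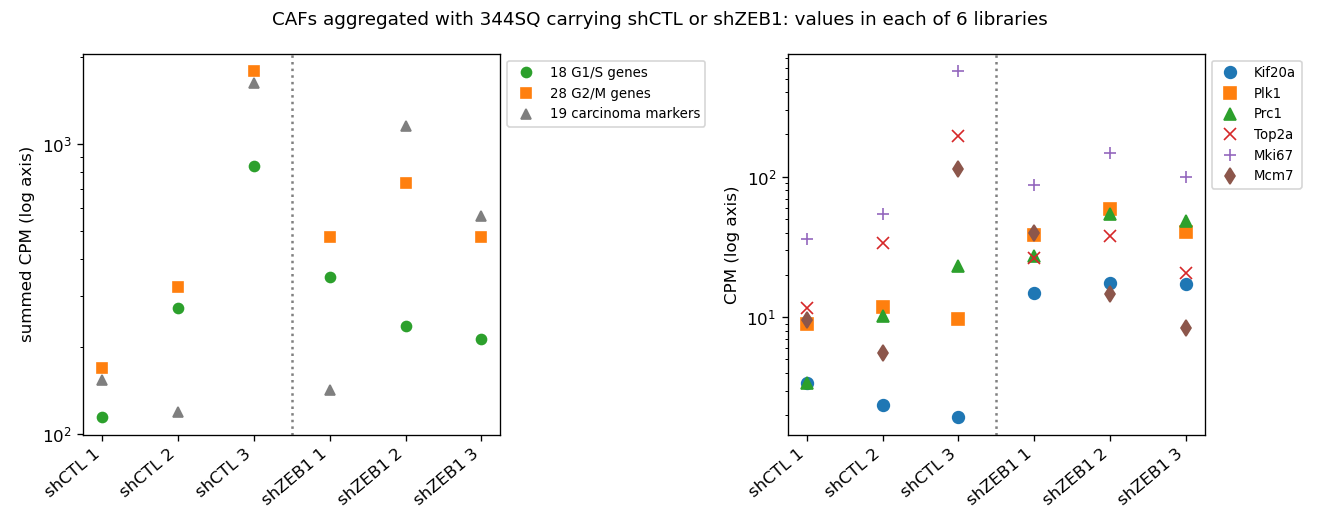
Left, summed CPM (log axis) of the 18 G1/S genes, 28 G2/M genes and 19 carcinoma markers in each of the 6 libraries of CAFs aggregated with 344SQ_shCTL or 344SQ_shZEB1; right, CPM (log axis) of 6 members in the same libraries. shCTL replicate 3 is highest for all 3 sums, while Kif20a is lowest there. Kif20a, Plk1 and Prc1 were picked for the smallest p, and all 3 shCTL libraries lie under every shZEB1 library for them. Unlike the other values, the carcinoma sum is CPM of total counts without scaling between libraries.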

How the data were processed

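RNA-seq was deposited for 60 libraries of sorted mouse CAFs in 8 groups, as 3 tables of raw counts per gene (48440 genes). The authors made these deposited counts with STAR and HTSeq on mm10, per the submitters' processing notes; the labels name no version, annotation or strand setting. Boyden technical libraries were summed per biological replicate. Each table was filtered (filterByExpr), scaled (TMM) and tested over all its genes with edgeR 4.0.16 (quasi-likelihood test, Benjamini-Hochberg adjusted p under 0.05, all groups of a table in 1 fit, R 4.3.3), without a replicate block. Differences between formats came from a joint fit of the aggregate and Boyden tables. Log2 changes carry their SE, and levels are CPM after TMM scaling, except sums of cell type markers, which are CPM of total counts. The code was tested on simulated data. DESeq2 1.42.0, other scalings, filters, blocks, thinning, single technical libraries and leaving out each replicate were alternatives; technical libraries 2 and 3 alone and the scalings of the format ratios were added after seeing the data. Exonic lengths and overlaps came from GENCODE M21 (GRCm38), promoters from RefSeq (GRCm38.p6). Levels between genes were compared per kilobase only. Figures were drawn with matplotlib 3.10.9.

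The members and the other gene lists were chosen with earlier results of these data known. Described in full were Mki67, Top2a, Cdk1, Ccnb1, Pcna, Mcm5, E2f1, Foxm1 and the D-type cyclins, and per comparison up to 4 G1/S and 4 G2/M members with the smallest p; of other cell cycle genes, Cdkn1a, Rb1 and Rbl1, and up to 2 called genes per list with the smallest p. Of the 49 genes, 14 share exonic bases with a gene on the opposite strand, 8 of them over 10% of their exonic length.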

Additional observations from a re-analysis of the deposited data

Results flagged for a closer look

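In 6 of 159 groups of Boyden values, 1 sample lay far from the other 4 of its group, where chance gives about 1 in 20. Aurka was at 135 CPM in CAFs alone replicate 1, with the next value at 104 CPM. Mcm3 was at 148.7 CPM in 344SQ replicate 2 (next 140.7), Ccnd2 at 2167 CPM in 344SQ replicate 4 (next 1940.05), and Ect2 at 54.4 CPM in 344SQ replicate 3 (next 45.5). Bub1b was at 33.8 CPM in 393P replicate 5 (next 28.8), and Pcna at 116 CPM in 393P replicate 1, under the next value of 128 CPM. The effect of the tumour cells differed between aggregates and Boyden chambers, by the test of the difference itself, for Ccnd3 with 393P (0.75 on the log2 scale) and for Rrm1 with 393P (-1.04) and with 344SQ (-0.91). Of the 11 members tested in aggregates, 2 differed for 393P and 1 for 344SQ, where 14.9% and 7.88% of genes tested there did. These shares are near those of all genes, and the 344SQ call of Rrm1 was lost in 11 of 16 leave-one-out fits. Rrm1 was lower with tumour cells in all 6 aggregate co-cultures, and Ccnd3 was higher than every CAFs-alone sample in all 3 aggregates with 393P.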

How the results depend on the processing

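Counts of members called and class medians kept their side under the other alternatives run; the exceptions follow, and their cause was not tested beyond what each alternative changes. Without a filter on low counts, 1 member was higher with 393P in aggregates, 1 lower opposite each line in Boyden chambers, 6 lower for 344SQ against 393P, 0 differed between formats for 344SQ, and 90 genes were called for shZEB1. DESeq2 called 0 members lower with 393P in aggregates and 26 genes for shZEB1. With only the groups compared in the fit, 1 member was lower with 344SQ in aggregates and 1 opposite 393P in Boyden chambers. The labels do not say that replicate numbers pair the samples. Same-numbered samples correlated by over 0.1 in 0 of 9 aggregate, 2 of 15 Boyden and 1 of 3 shRNA pairs. The Boyden pairs ran from -0.349 to 0.305. Differently numbered samples were not compared, so these values do not settle whether samples are paired. With a replicate block, 1 member was lower with 344SQ in aggregates, 1 lower for 344SQ against 393P in Boyden chambers, 1 gene was called for shZEB1, and the G1/S median for shZEB1 was 0.38. Technical library 1 alone gave, opposite 393P, 18 members higher, 609 genes and medians of 0.15 (G1/S) and 0.41 (G2/M), with Cdt1 at -0.047. Opposite 344SQ it gave 6 members, 500 genes and medians of 0.0074 and 0.25, and for 344SQ against 393P 0 members lower and 73 genes, with Cenpa at 0.083. Technical library 2 alone gave 6 and 4 members higher, 199, 513 and 280 genes in the 3 comparisons, and a G2/M median of -0.10 for 344SQ against 393P. Technical library 3 alone gave 19 and 5 members higher, 1133, 739 and 152 genes, and 0 members lower for 344SQ against 393P. With 393P replicate 1 lacking its technical library 2, 1 member was lower there. The format ratios were 5.27 (G1/S), 28.5 (G2/M) and 2.78 (D-type cyclins) without rRNA-like and mitochondrial genes, and 3.62 for D-type cyclins with joint TMM factors. With each replicate left out in turn, aggregates gave 0 to 1 members higher and 0 to 1 lower with either line and 284 to 421 genes for 344SQ. The shZEB1 medians ran from -1.03 to 1.49 (G1/S) and -0.68 to 1.38 (G2/M). Boyden chambers gave 9 to 16 members higher opposite 344SQ, 0 to 1 lower opposite 393P, 0 to 2 lower opposite 344SQ, and 0 to 4 lower for 344SQ against 393P with a G1/S median of -0.15 to -0.076. Between formats 0 to 4 members differed for 393P and 0 to 2 for 344SQ. In the aggregates 38 members were under the count filter and were not tested.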
